A study of Homo sapiens with 6 samples.

Results

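Expression of 10 keratin genes of breast epithelium was read from RNA-seq libraries of cells labelled MDA-MB-453 after knockdown of N6AMT1. The members were listed by symbol (KRT5, KRT6A, KRT7, KRT8, KRT14, KRT16, KRT17, KRT18, KRT19 and KRT81) and matched to 10 of the 62438 gene identifiers in the deposited table. MDA-MB-453 is an established human breast cancer cell line. Both groups received siRNA at 10 nM by the same lipid transfection for 48 h. In the si-N6AMT1 group (3 samples) it targeted N6AMT1, and in the si-CN group (3 samples) it had a scrambled sequence. The labels do not say that the 3 samples were separate cultures, so the tests measure the spread between these samples, which may be technical. The biological coefficient of variation between replicates was 1.85%. The knockdown was transient and in a single line, and the labels name 1 targeting siRNA.

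Keratins are the intermediate filament proteins of epithelial cells. A filament is built from pairs of a type I and a type II keratin, and epithelia differ in the pairs they use. KRT8 and KRT18 form the filaments of simple and luminal cells, where KRT7 and KRT19 also occur. KRT5 and KRT14 are the pair of basal and myoepithelial cells. KRT6A, KRT16 and KRT17 are induced in wounded or hyperproliferative stratified epithelium, and KRT81 is a type II keratin of hair. Type II genes lie together on chromosome 12 with the type I gene KRT18 at their edge, next to KRT8, and the other type I genes lie on chromosome 17.

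Library totals ran from 19739247 to 21289740 counts. N6AMT1, the targeted gene, had 135 to 141 counts in si-CN and 60 to 72 in si-N6AMT1 libraries, and was lower by edgeR's quasi-likelihood test (log2 fold change -1.10, standard error 0.119, FDR = 3.65e-07). MDA-MB-453 is known as a luminal line, and against that label the markers were mixed. TFF3 and PIP, secreted proteins of luminal cells, were at 0 in every library. Of 17 luminal markers, 5 stayed under 10 counts in every library, TFF3, PIP and SPDEF among them, and the luminal factors GATA3 and FOXA1 had 1.92 and 5.34 TPM in si-CN, where TPM is counts per transcript length. Other luminal markers were expressed, with EPCAM at 455 TPM, MUC1 at 203 TPM, XBP1 at 98.1 TPM and ERBB2 at 26.2 TPM. All 10 basal or myoepithelial markers passed the expression filter, but they spread widely. EGFR had 260 TPM, MME 122 TPM and TP63, the p63 factor of basal cells, 93.3 TPM, while OXTR had 3.32, NGFR 3.03, CNN1 0.999 and MYH11 0.507 TPM. EGFR alone gave 1156.7 CPM of the summed basal markers. Summed luminal markers ran from 643 to 665 CPM in si-CN and from 641 to 645 CPM in si-N6AMT1, and summed basal markers from 1897.4 to 1962.6 CPM and from 1937.6 to 1993.4 CPM. Mesenchymal-like markers summed to 4812.2 to 4839.0 CPM in si-CN and 4949.1 to 5005.5 CPM in si-N6AMT1, with VIM at 632 CPM in si-CN. Of the markers tested, 3 of 10 luminal genes were higher and 1 lower, and 1 of 10 basal genes was higher and 1 lower. Of 10 mesenchymal-like genes, 5 were higher and 2 lower. Over all genes tested, 9.78% were higher and 11.5% lower. The part of these markers in the keratin results was not tested. Fibroblast markers summed to 56.5 to 60.7 CPM and to 57.8 to 61.5 CPM in the same order of groups. Endothelial markers with an entry reached at most 1.13 CPM together, and leukocyte markers at most 0.343 CPM. The cells are therefore called cells labelled MDA-MB-453 throughout. In bulk RNA, fewer cells of a type and less RNA per cell cannot be told apart.

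Several keratins are so alike that reads cannot always be assigned to 1 gene, and this sets how far single values can be read. The coding sequence of KRT6A was identical to that of KRT6B at 97.5% of 1692 aligned bases and to that of KRT6C at 97.9%. KRT16 matched KRT14 at 88.6% of 1389 aligned bases and KRT17 at 79.3% of 1288. The stretches of 60 coding bases in which each trio differs most are printed here, because the rises of KRT6A, KRT6B and KRT16 rest on telling these genes apart. Capitals mark positions at which the 3 genes are not all the same, 9 in the KRT6 trio and 25 in the other. Most of those 25 set KRT17 apart from KRT16 and KRT14, which are alike at most of them. That stretch therefore does little to separate KRT16 from KRT14, and the pseudogene KRT16P6 is not shown. The sequences run 5′ to 3′ from the GENCODE v44 transcripts on GRCh37 and lie in exons, at coding bases 663 to 722 in KRT6A, KRT6B and KRT6C, at 465 to 524 in KRT16, at 459 to 518 in KRT14 and at 366 to 425 in KRT17.
KRT6A: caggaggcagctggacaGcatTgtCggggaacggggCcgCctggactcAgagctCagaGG
KRT6B: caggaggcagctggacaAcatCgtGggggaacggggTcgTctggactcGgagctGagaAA
KRT6C: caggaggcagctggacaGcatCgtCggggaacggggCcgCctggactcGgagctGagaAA
KRT16: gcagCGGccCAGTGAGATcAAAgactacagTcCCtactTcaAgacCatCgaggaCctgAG
KRT14: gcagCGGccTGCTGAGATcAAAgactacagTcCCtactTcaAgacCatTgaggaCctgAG
KRT17: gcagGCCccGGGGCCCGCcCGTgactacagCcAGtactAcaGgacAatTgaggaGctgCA

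The counting tool, kallisto, assigns reads by short words of sequence, and the share of words found in no other gene's transcripts differed widely between members. Over words of 31 bases it was 91.8% for KRT5, 88.6% for KRT19 and 84.5% for KRT7, 65.1% for KRT17, 63.5% for KRT16 and 57.5% for KRT14, and 47.3% for KRT6A, 46.8% for KRT81, 38.9% for KRT8 and 23.2% for KRT18. KRT6A shared most with KRT6C, at 45.8% of its words, yet KRT6C had only 0 to 2 counts per library. KRT81 shared 43.2% with KRT86, which had 11 to 21 counts. KRT18 shared words with 80 other genes, among them KRT8, which held 24.9% of the KRT18 words. Words were matched on either strand, and the annotated KRT8 gene overlaps the start of KRT18 on the opposite strand. Sharing through likeness and through overlap was not separated. The 27 pseudogenes named after KRT18 held only 0.197% to 0.324% of the counts of gene and pseudogenes together. For KRT8 that share was 1.06% to 1.25%, and for KRT17 it was 0.0374% to 0.0732%. The share was far larger for KRT16, whose 6 pseudogenes with counts held 36.9% to 46.4%, nearly all in KRT16P6 on chromosome 17. KRT16P6 had 430 to 480 counts in si-CN and 442 to 526 in si-N6AMT1 libraries. For KRT19 the share was 11.1% to 44.4%, but from only 1 to 8 pseudogene counts per library.

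In control cells the most abundant keratin mRNA was that of KRT17. TPM was estimated here as counts per reference transcript length, scaled to the same total in every library, so levels can be compared between genes. KRT17 had 4149.8, 4199.6 and 4167.4 TPM in the si-CN libraries (mean 4172.3 ± 25.3, SD, n = 3), which put it at rank 14 of 20019 protein-coding genes. It took 0.281% to 0.284% of all counts in si-CN, and 55.4% to 55.8% of the TPM of the 10 members. The basal keratin KRT5 followed with 763 ± 7.65 TPM (SD, n = 3), then the simple keratins KRT8 with 747 ± 4.92, KRT18 with 725 ± 10.4 and KRT7 with 593 ± 13.5 TPM. KRT6A had 308 ± 5.25 TPM and KRT14, the usual partner of KRT5, 150 ± 6.17 TPM, so that KRT5 stood 4.96 to 5.32 times above KRT14 per library. KRT16 had 37.6 ± 1.18 TPM, KRT81 8.21 ± 0.699 TPM and KRT19 only 0.796 ± 0.179 TPM, which was 8 to 12 counts per si-CN library.

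The ranges of the 3 si-CN libraries did not overlap between any neighbours in this order, but KRT5 stood only 1.02-fold above KRT8, and KRT8 only 1.03-fold above KRT18. Which gene length is used matters for that part of the order. With the longest annotated transcript of each gene, KRT5 had 969 TPM and KRT7 753, above KRT18 with 623 and KRT8 with 592 TPM. KRT17 stayed the highest with 4382.8 TPM and KRT19 the lowest with 1.01 TPM.

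**Figure D1:**
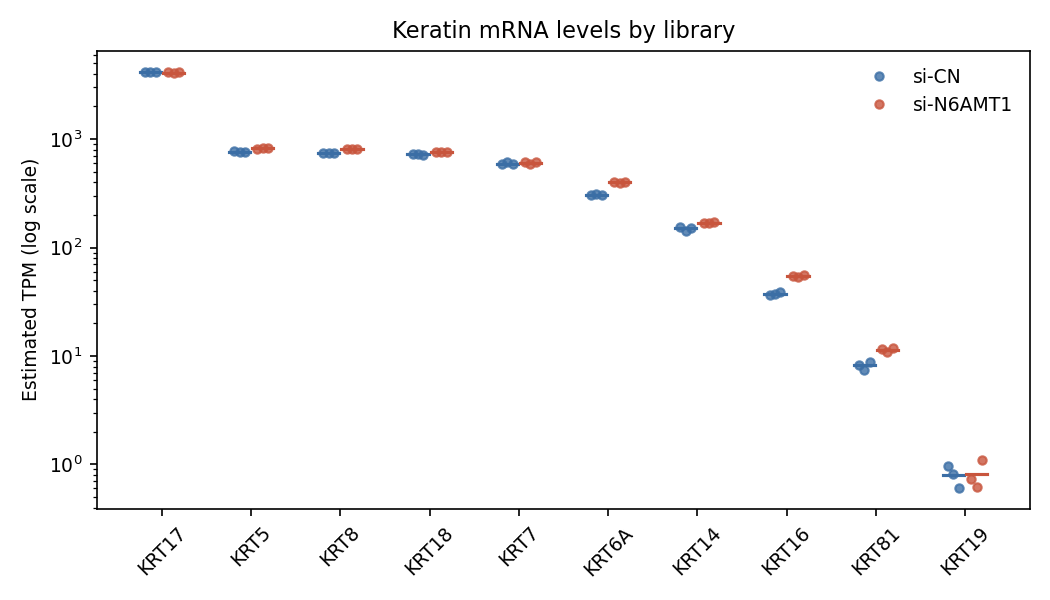
Estimated TPM on a log scale for the 10 keratin genes, ordered by their si-CN mean. Each point is a library, 3 per group, and horizontal lines are group means. KRT17 lies near 4172.3 TPM in si-CN and KRT19 near 0.796 TPM, and the shift between groups is seen most clearly for KRT16, KRT81 and KRT6A.

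The comparison of si-N6AMT1 with si-CN asked which keratins changed with the knockdown. All 10 members passed the expression filter, 7 were higher at an FDR under 0.05 and 3 were not called. None was lower by edgeR, nor at an unadjusted p under 0.05 (0 genes), nor by DESeq2 (0) or limma-voom (0). Of all 17320 genes tested, 9.78% were called higher and 11.5% lower. The median log2 fold change of the members was 0.11, against 0.00 over all genes tested. Each of the 7 was higher in every si-N6AMT1 library than in any si-CN library, as 16.8% of all tested genes were. Members were listed with earlier results of these counts known, so their share is a description only. Expression below is in CPM scaled by TMM, a library size correction, while FDR stands for the p of edgeR's quasi-likelihood test, adjusted over all genes tested by Benjamini and Hochberg.

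KRT16, an inducible type I keratin, had the largest log2 fold change of the members by its own counts, but not once pseudogene counts were added. It lies on the minus strand at chr17:39766030-39772151 (GRCh37) under the identifier ENSG00000186832. Its expression was 27.5, 28.0 and 28.7 CPM in si-CN and 40.7, 40.0 and 41.7 CPM in si-N6AMT1 replicates 1 to 3, so every si-N6AMT1 library stood well above every si-CN library. This was a rise of 45.4%, or 0.54 ± 0.0441 (SE) in log2 fold change (FDR = 4.62e-09). With counts of its pseudogenes added to it, the rise was 0.36 on the log2 scale (FDR = 1.07e-07), below KRT81 with 0.48 and KRT6A with 0.38. KRT16P6 alone had 22.4 ± 0.485 CPM in si-CN and 24.0 ± 1.73 CPM in si-N6AMT1 (SD, n = 3, FDR = 0.254).

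KRT6A (ENSG00000205420, chr12:52880960-52887041, minus strand), its usual type II companion in activated epithelium, had the lowest FDR of the members. It had 323, 324 and 313 CPM in si-CN and 417, 415 and 418 CPM in si-N6AMT1 libraries. The groups were far apart relative to their SDs of 5.91 and 1.20 CPM. The rise was 30.3%, or 0.38 ± 0.0218 (SE) in log2 fold change (FDR = 1.45e-11). As a ratio of TPM, KRT6A stood at 0.397 to 0.412 of KRT5 in si-CN and at 0.481 to 0.495 in si-N6AMT1 libraries.

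KRT17 (ENSG00000128422, chr17:39775694-39781094, minus strand) lies beside KRT16 on chromosome 17 and is also an inducible type I keratin, yet it was not called. It had 2871.6, 2848.8 and 2822.5 CPM in si-CN and 2798.1, 2788.0 and 2861.6 CPM in si-N6AMT1 libraries. The groups overlapped, with -0.02 ± 0.0189 (SE) in log2 fold change (FDR = 0.612). The level of KRT16 relative to KRT17, as a ratio of TPM, was 0.00876 to 0.00929 in si-CN and 0.0131 to 0.0133 in si-N6AMT1 libraries, with no overlap. KRT17 makes up most of the type I mRNA, and the ratio of summed type II to type I TPM over the members was 0.473 to 0.478 in si-CN and 0.515 to 0.523 in si-N6AMT1 libraries.

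**Figure D2:**
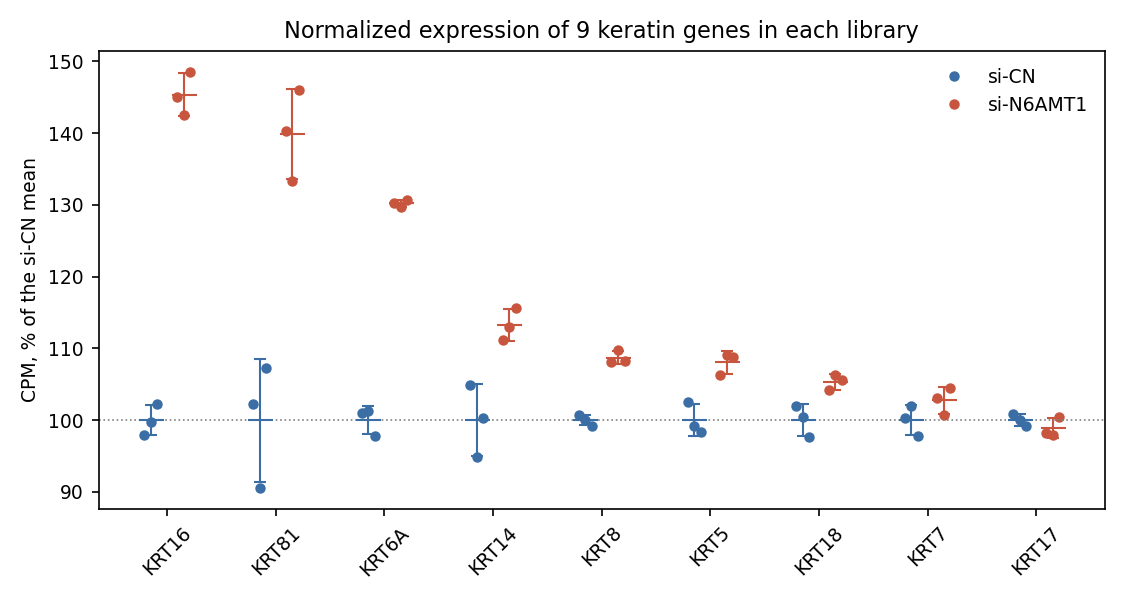
CPM of 9 keratin genes in each library as a percent of the gene's si-CN mean, which is the dotted line at 100. Points are libraries, horizontal marks are group means and error bars are SDs over 3 libraries. KRT16, KRT81 and KRT6A separate widely, KRT14, KRT8, KRT5 and KRT18 by small margins, and KRT7 and KRT17 overlap. KRT19 is left out because its counts are too few.

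The basal pair rose together but by less. KRT14 (ENSG00000186847, chr17:39738531-39743147, minus strand) had 116, 105 and 111 CPM in si-CN and 123, 125 and 128 CPM in si-N6AMT1 libraries. Its rise of 13.3% was 0.18 ± 0.0319 (SE) in log2 fold change (FDR = 0.000215). KRT5 (ENSG00000186081, chr12:52908359-52914314, minus strand) had 787, 762 and 755 CPM against 816, 838 and 835 CPM, which was 0.11 ± 0.0214 (SE) in log2 fold change (FDR = 0.000522). For KRT5 the gap between the highest si-CN and the lowest si-N6AMT1 library was small. It had 15009 to 17114 counts per library.

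Among keratins of simple epithelium, KRT8 and KRT18 were called and KRT7 and KRT19 were not. KRT8 (ENSG00000170421, chr12:53290971-53343738, minus strand) had 604, 600 and 595 CPM in si-CN and 648, 658 and 649 CPM in si-N6AMT1 libraries (0.12 ± 0.0201, SE, in log2 fold change, FDR = 0.000126). KRT18 (ENSG00000111057, chr12:53342655-53346690, plus strand), the partner of KRT8, had 470, 463 and 450 CPM against 480, 490 and 487 CPM. At 0.08 ± 0.0219 (SE) in log2 fold change (FDR = 0.0150), its rise was the smallest among called members. This call was lost in 3 of 14 alternatives, over which its FDR ran from 0.00739 to 0.367. It was lost without si-CN replicate 3 (FDR = 0.112), without si-N6AMT1 replicate 2 (FDR = 0.0647), and in a fit with GC correction that also held replicate number as a block (FDR = 0.367), all from edgeR's test. The annotated KRT8 gene overlaps the start of KRT18 on the opposite strand, and the strand option of the counting is not given in the sources used here.

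KRT7 (ENSG00000135480, chr12:52626304-52645970, plus strand) had 435, 442 and 424 CPM in si-CN and 447, 437 and 453 CPM in si-N6AMT1 libraries. The groups overlapped (log2 fold change 0.04, standard error 0.0227, FDR = 0.245). Its antisense RNA KRT7-AS, which contains 12.3% of its words of 31 bases on either strand, had 9.62 ± 0.583 CPM in si-CN and 11.4 ± 0.791 CPM in si-N6AMT1 (SD, n = 3), with an FDR of 0.0425 from edgeR's test. KRT19 (ENSG00000171345, chr17:39679869-39684560, minus strand), a keratin of luminal cells, was near the limit of detection. Counts were 12, 10 and 8 in si-CN and 9, 8 and 14 in si-N6AMT1 libraries, and at this depth a difference was not detectable (log2 fold change 0.04, standard error 0.377, FDR = 0.959).

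KRT81 (ENSG00000205426, chr12:52679697-52685318, minus strand), the hair keratin, was low but rose by nearly as much as KRT16. It had 7.28, 6.45 and 7.64 CPM in si-CN and 9.99, 9.50 and 10.4 CPM in si-N6AMT1 libraries, which came from 127 to 162 and 194 to 213 counts. The rise was 39.6%, or 0.48 ± 0.0928 (SE) in log2 fold change (FDR = 0.000522). KRT86, its closest relative by shared words, had 0.626 ± 0.0754 CPM in si-CN and 0.760 ± 0.269 CPM in si-N6AMT1 (SD, n = 3) and was not called (FDR = 0.633).

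Members were richer in G and C than most genes, with 55.8% to 62.3% GC in their reference transcripts against a median of 48.1% over 17239 tested genes. Correcting each library for GC content, in a fit with replicate blocks, moved the members' log2 fold changes by a median of -0.05. KRT5 and KRT8 then had FDRs of 0.0479 and 0.0394, just under the threshold. KRT16, KRT6A and KRT81 kept log2 fold changes of 0.49, 0.35 and 0.43, and KRT14 one of 0.13. Beyond this, the part of GC content was not tested.

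The other keratin genes did not share 1 direction. Of 45 further protein-coding keratin genes, 35 were not tested, all with under 10 counts in every library, and 12 of them had no count at all. Of the 10 tested, 3 were higher, 3 were lower and 4 were not called, against 9.78% higher and 11.5% lower over all genes tested. KRT6B, the near copy of KRT6A, had 4.07, 3.45 and 3.63 CPM in si-CN and 6.56, 5.83 and 5.90 CPM in si-N6AMT1 libraries (log2 fold change 0.71, standard error 0.120, FDR = 0.000119). KRT23, a type I keratin found in some epithelial tumours, and KRT9, the keratin of palm and sole skin, were also higher, with log2 fold changes of 0.93 and 0.87, but each had under 80 counts in any library.

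KRT15 and KRT13 moved the opposite way to KRT16 and KRT14 on the same chromosome. KRT15, a keratin of quiescent basal cells, had 48.4, 47.1 and 46.1 CPM in si-CN and 35.4, 37.4 and 37.3 CPM in si-N6AMT1 libraries. Its log2 fold change was -0.36 ± 0.0415 (SE, FDR = 7.94e-07). KRT13, a suprabasal keratin of non-cornified mucosa, fell by the same amount (standard error 0.0770, FDR = 0.00158), from 15.5 ± 0.845 to 12.1 ± 1.03 CPM (SD, n = 3). KRT80 on chromosome 12 fell by 0.13 (standard error 0.0292, FDR = 0.00231), from 146 ± 3.94 to 133 ± 4.59 CPM. KRT10 and KRT75 were not called, with log2 fold changes of -0.02 and -0.27.

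**Figure D3:**
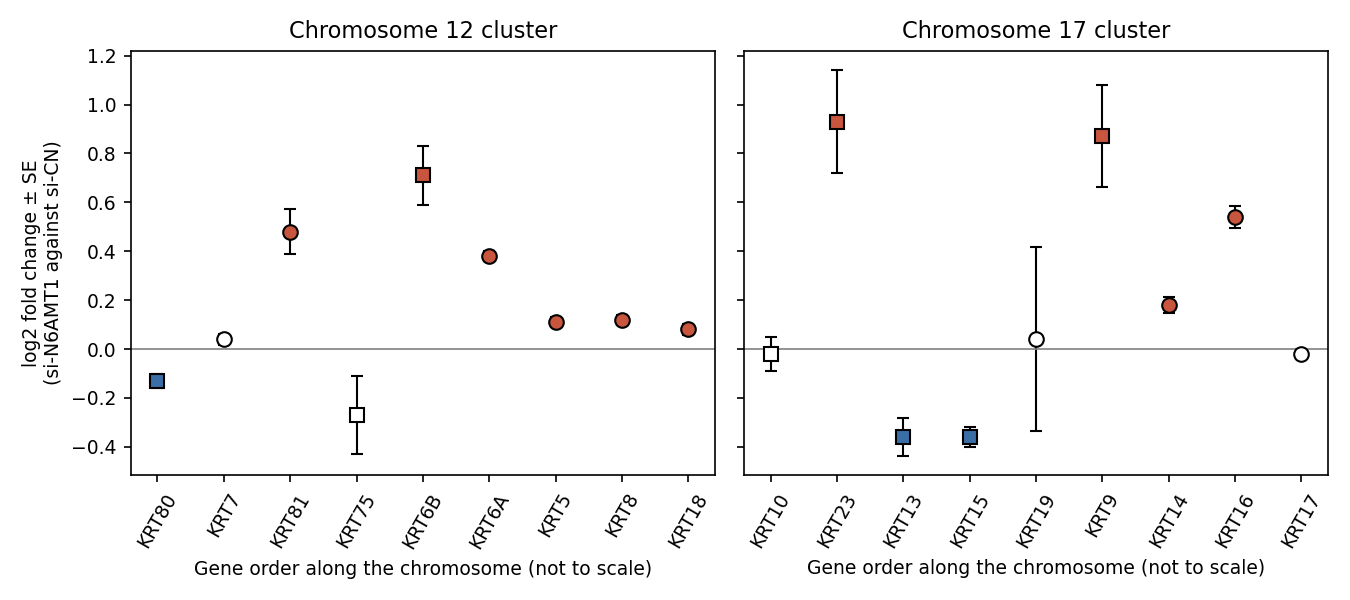
Log2 fold change of si-N6AMT1 against si-CN with its standard error for keratin genes in their order along chromosome 12 (left) and chromosome 17 (right). Circles are the 10 members and squares other keratins, filled red where called higher, filled blue where called lower and white where not called. KRT13 and KRT15 lie below 0 in the same cluster as KRT14 and KRT16, and KRT17 lies at -0.02.

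Genes that anchor or bind keratin filaments were counted from lists written with earlier results of these counts known, and no set test was run. The counts of this and the next lists stand beside 9.78% higher and 11.5% lower over all genes tested. Keratin filaments attach to desmosomes, the junctions between epithelial cells. Of 14 desmosome genes 11 were tested, of which 4 were lower and 0 higher (0 at an unadjusted p under 0.05, and 0 by DESeq2 and limma-voom), with a median log2 fold change of -0.09. DSC3, the desmosomal cadherin of basal layers, had the largest fall among those called, from 44.7 ± 0.551 to 38.1 ± 0.974 CPM (SD, n = 3, log2 fold change -0.23, FDR = 0.000188), and DSG2 had the smallest FDR (log2 fold change -0.14, FDR = 0.000112, both from edgeR's test). DESeq2 called 2 of the 11 lower.

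The list of cytolinkers and hemidesmosome genes split in direction, with 4 of 13 higher and 3 lower. Hemidesmosomes tie keratins to the cell base, but not every gene on this list does so. COL17A1, a hemidesmosome collagen, rose (log2 fold change 0.13, FDR = 8.66e-05), and LAMA3, a laminin-332 chain, fell (log2 fold change -0.19, FDR = 8.81e-06). LAMB3, another laminin-332 chain, rose by 0.08 on the log2 scale (FDR = 0.00405), a call lost with the replicate block and GC correction (FDR = 0.355). PLEC, encoding plectin, fell by 0.13. Of 13 genes for keratin binding and turnover, 4 were higher and 2 lower. HSPA8, a chaperone, rose by 0.19 (FDR = 2.42e-07) and SFN, the 14-3-3 sigma protein of epithelia, by 0.16 (FDR = 3.01e-06), while FBF1 fell by 0.28 (FDR = 0.00542). DESeq2 called none of the 13 lower (0), with an adjusted p of 0.0687 for FBF1, against 3 lower at an unadjusted p under 0.05 by edgeR.

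Other intermediate filament genes had 2 of 10 tested lower and 0 higher (0 at an unadjusted p under 0.05, and 0 by DESeq2 and limma-voom). SYNM, encoding synemin, went from 15.2 to 10.4 CPM, a log2 fold change of -0.55 ± 0.0808 (SE, FDR = 2.10e-05), and VIM, the mesenchymal filament gene, was not called. Of 18 squamous differentiation genes only 4 passed the filter, and 13 stayed under 10 counts in every library, IVL and LORICRIN among them. FLG, encoding filaggrin, rose from 4.90 ± 0.332 to 9.60 ± 0.290 CPM (SD, n = 3, log2 fold change 0.97, FDR = 1.39e-07) and TGM1 by 0.21 (FDR = 0.00748), with 0 genes lower (0 at an unadjusted p under 0.05, and 0 by DESeq2 and limma-voom). Of 13 tested genes on a list of epithelial transcription factors, 4 were higher and 1 was lower. The lower gene, ESRP1, is a splicing regulator rather than a transcription factor. SOX9 rose by 0.49 (FDR = 2.38e-05), TFAP2A by 0.19 (FDR = 4.92e-05), TP63 by 0.14 (FDR = 0.000154) and EHF by 0.45 (FDR = 0.00724), and ESRP1 fell by 0.18 (FDR = 0.0237), all on the log2 scale by edgeR's test. The ESRP1 call was lost with DESeq2 (adjusted p = 0.165) and without si-N6AMT1 replicate 1 (FDR = 0.109) or 3 (FDR = 0.0717) or si-CN replicate 1 (FDR = 0.0548) or 2 (FDR = 0.0858). That of EHF was lost without si-CN replicate 1 (FDR = 0.0521), and that of TGM1 with DESeq2 (adjusted p = 0.0975) and without si-N6AMT1 replicate 2 (FDR = 0.0526).

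**Figure D4:**
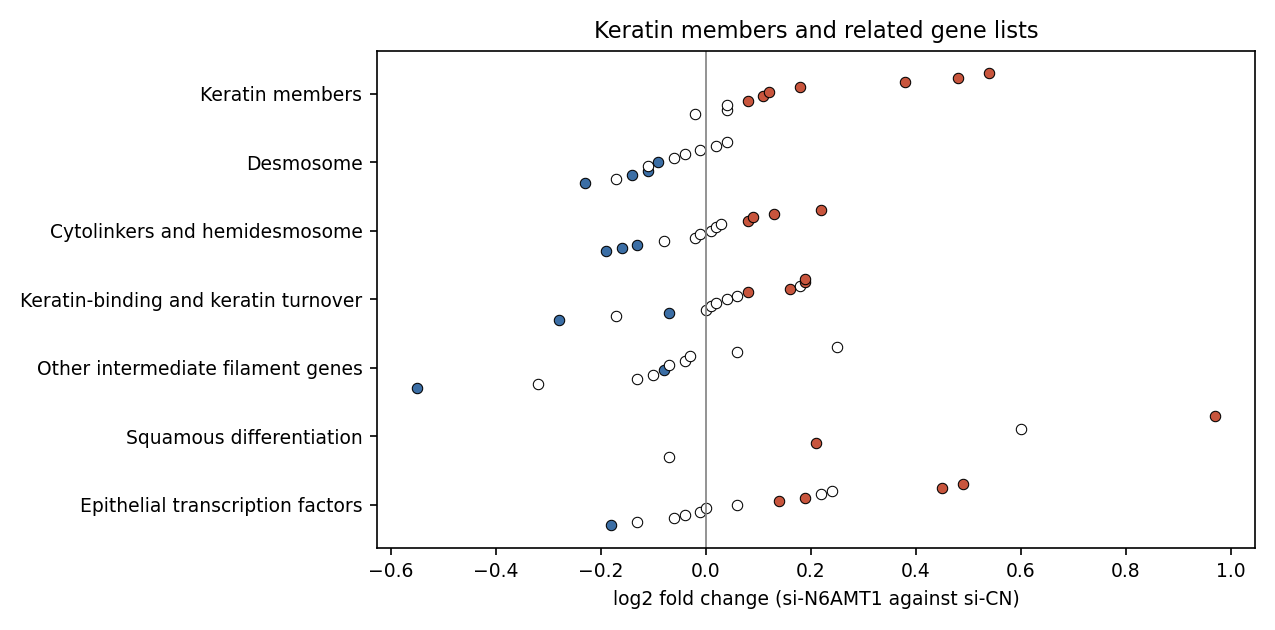
Log2 fold change of si-N6AMT1 against si-CN for each tested gene of the keratin members and 6 related lists, 1 point per gene. Red points were called higher, blue points lower and white points were not called at an FDR of 0.05. Called keratin members lie between 0.08 and 0.54, and called desmosome genes between -0.23 and -0.09.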

How the data were processed

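RNA was sequenced as 151 bp paired-end reads from stranded mRNA libraries. After trimming (Trim Galore v0.6.5), the authors quantified GENCODE v33 transcripts (hg19) in kallisto v0.46.0 and added up the transcripts of each gene. The deposited table holds these estimated counts, made by the authors, as whole numbers without normalization, and the 6 columns were matched to samples by name. Here, counts were rounded, filtered by edgeR's filterByExpr with a minimum count of 10 (17320 genes), scaled by TMM and tested by the quasi-likelihood test of edgeR (v4.0.16, under R v4.3.3), with no covariate and an FDR threshold of 0.05. The authors' test was DESeq2. Standard errors were |log2 fold change| over the root of the F statistic. TPM, symbols, positions and GC content came from reference transcripts of GENCODE v44 on GRCh37, which gave a length for 62149 genes. On simulated counts with 1.5-fold changes, the procedure recovered 76.2% of the changed genes, and 2.65% of its calls were false. The called members all changed by less than 1.5-fold, so changes of their size were not simulated.

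Named genes were the 10 members, and other keratins with at least 1 TPM in si-CN or called. The called gene with the smallest FDR per list and direction was also named. Of the pseudogenes with the most counts for each member, only that of KRT16 (KRT16P6) was named. Further genes were named after their values were seen (KRT86, KRT6C, KRT7-AS, PLEC, LAMB3, DSC3, SFN, TFAP2A, TP63, EHF and TGM1, and those named as markers). Members and lists were chosen with earlier results of these data known. Alternatives were RLE size factors, DESeq2 v1.42.0, limma-voom (limma v3.58.1), no filter, genes with a TPM of at least 1 (17601), a replicate block, alone or with GC correction, pseudogene counts added to members, the longest transcript for TPM, and each library left out. Chi-square per degree of freedom was 1.36 to 1.77 for library pairs within and 6.85 to 7.81 for pairs between groups. No library was left out as a repeat. Values this low within groups cannot tell separate cultures from repeat libraries of the same culture.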

Additional observations from a re-analysis of the deposited data

How the results depend on the processing

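KRT5, KRT6A, KRT8, KRT14, KRT16 and KRT81 kept their direction and call in all 14 alternatives each. KRT18 did not, as given above, so the number of members called higher was 6 to 7 when single libraries were left out, and no member was called lower in any. The value of KRT7 turned to -0.01 with the replicate block and GC correction, and that of KRT19 to -0.01 there, to -0.04 with pseudogene counts added, to -0.23 without si-N6AMT1 replicate 3 and to -0.13 without si-CN replicate 3 (-0.23 to 0.21 over single libraries left out). Neither was called in any. KRT10, also uncalled, turned to 0.06 without si-N6AMT1 replicate 1 and 0.02 without si-CN replicate 2 (-0.06 to 0.06 over single libraries left out). DESeq2 called 796 genes higher and 1139 lower, and gave NA for KRT6B, KRT9, KRT19, KRT23, KRT75, KRT86, EHF and N6AMT1. It called 2 desmosome genes lower, 0 keratin-binding genes lower, 1 other intermediate filament gene lower and 1 squamous gene higher. On the list of epithelial transcription factors it called 0 genes lower. When single libraries were left out, the desmosome count lower ran from 2 to 5 and keratin-binding lower from 1 to 2. Other intermediate filament lower ran from 1 to 2, squamous higher from 1 to 2 and the transcription factor list lower from 0 to 1. The replicate block left 1 other intermediate filament gene lower and all 7 members higher. Same-numbered samples did not deviate together (r of -0.0381, -0.0422 and 0.00997). Because the spread within groups was small, this check cannot tell whether they were handled together. With the longest transcript, the type II to type I ratio was 0.518 in si-CN and 0.566 in si-N6AMT1. The cause of these moves was not tested. Low counts limit KRT19, KRT9, KRT23 and KRT75.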
